A study of Gallus gallus with 10 samples.

Results

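HPGDS (ENSGALG00000010402), the gene of the hematopoietic prostaglandin D synthase, was 1 of 11324 genes counted in RNA from the preoptic anterior hypothalamus (PO/AH) of Cobb broiler chicks. It was chosen by its place in the study's list of genes with higher counts after the miR-200a mimic. That list was drawn up on these same libraries, so the difference between the groups chose the gene. It is given here as a description, with no p-value. The study asked which PO/AH genes change their expression when miR-200a is raised. There were 5 libraries from chicks taken 6 h after a hsa-miR-200a-3p mimic was injected, according to the labels into the PO/AH, at day 3 of age. The study's text names the PO/AH in some places and the third ventricle in another as the site. The reference was 5 libraries from naïve chicks, also at day 3 of age, kept under the control conditions and not injected. No library came from chicks injected with a negative control mimic, so the mimic and the injection itself cannot be told apart. All libraries came from whole tissue lysate, and no source read here states if each held the RNA of a single chick, so the spread between libraries may in part be technical.

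HPGDS is a cytosolic enzyme of the sigma class of glutathione transferases. It uses glutathione to turn prostaglandin H2, the product of the cyclooxygenases, into prostaglandin D2, a lipid signal that acts through its own receptors on nearby cells. A second, unrelated enzyme of the lipocalin family makes the same product in the brain of mammals. In mammals HPGDS is known from mast cells, megakaryocytes, some T cells and microglia, and prostaglandin D2 is known for its part in sleep, in inflammation and in the control of body temperature, a function of the PO/AH.

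The libraries were made by bulk MARS-seq, which tags each transcript at its 3′ end with a unique molecular identifier (UMI), so that molecules rather than reads are counted. The total was 3598695 to 4511597 UMI counts per mimic library and 2104121 to 5503185 per naïve library. Levels are given as CPM, the UMI counts scaled to a common library size with TMM factors, and libraries are called by their deposited numbers. Naïve library 7 was the smallest of all, and it held 53 of the counts of FOLR1, a folate receptor gene of the choroid plexus, where each other naïve library held 1 to 4 and the mimic libraries 0 or 1. The labelled tissue could not be checked, since 0 of 12 listed marker genes of the PO/AH were matched by name. Of 8585 genes that passed a filter on low counts, 12 (0.14%) were called higher and 2 (0.0233%) lower after the mimic by edgeR's quasi-likelihood test. A call needed a change of 1.5-fold or more, a count of 30 or more in some library and an adjusted p of at most 0.05. HPGDS was not among the called genes. The study's list from which it was chosen came from DESeq2 with a looser limit on adjusted p, so the 2 are not at the same threshold.

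HPGDS held 377 UMI counts in mimic library 10, 192 in library 6, 169 in library 2, 162 in library 4 and 123 in library 9. In the naïve libraries it held 165 counts in library 2, 156 in library 3, 95 in library 6, 79 in library 7 and 76 in library 4. Every library therefore held enough molecules of this transcript for its level to be measured.

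After scaling to library size, the level was 97.7 CPM in mimic library 10, 47.4 CPM in library 2, 43.5 CPM in library 6, 42.3 CPM in library 4 and 28.4 CPM in library 9. In the naïve libraries it was 40.1 CPM in library 7, 29.8 CPM in library 2, 27.4 CPM in library 3, 20.3 CPM in library 4 and 18.3 CPM in library 6. The groups overlapped. Mimic libraries 2, 4, 6 and 10 lay above every naïve library, while mimic library 9 lay below naïve libraries 2 and 7. In 332 of the 8585 tested genes (3.87%) at least 4 mimic libraries lay above every naïve library. Of the 25 pairs of a mimic and a naïve library, the mimic library was the higher in 23.

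**Figure D1:**
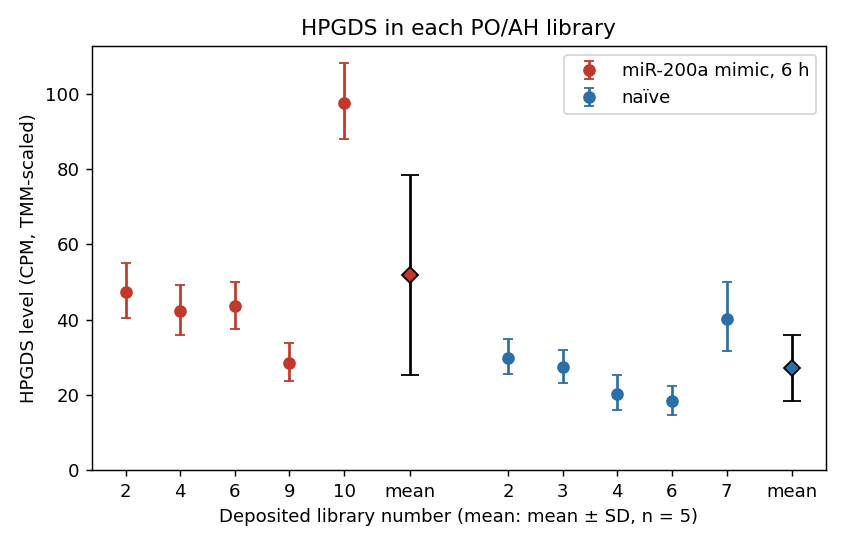
HPGDS level (CPM, TMM-scaled) in each PO/AH library, mimic libraries in red and naïve libraries in blue, with exact Poisson 95% intervals that cover counting error only; diamonds give the group mean ± SD. Mimic library 10 stands at 97.7 CPM, the other 4 mimic libraries lie between 28.4 and 47.4 CPM, and the naïve libraries lie between 18.3 and 40.1 CPM.

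Mean HPGDS was 51.8 ± 26.6 CPM (SD, n = 5) in the mimic libraries and 27.2 ± 8.65 CPM (SD, n = 5) in the naïve libraries. The log2 fold change fitted by edgeR was 0.95 with a standard error of 0.31, which is a 1.94-fold higher level. The ratio of the 2 group medians was smaller, at 1.59. The log2 fold change was 0.95 with RLE and 0.94 with upper-quartile factors in place of TMM.

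Mimic library 10 decided much of the size of this difference. Its level was 2.06 times that of the next highest mimic library. Without it the mean of the mimic libraries was 40.4 ± 8.27 CPM (SD, n = 4), against 27.2 ± 8.65 CPM (SD, n = 5) in the naïve libraries. The log2 fold change was then 0.59 with a standard error of 0.23, or 1.51-fold. Leaving out naïve library 7, the highest of its group and the smallest library, gave a log2 fold change of 1.11. Leaving out mimic library 9, the lowest of its group, also gave 1.11.

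**Figure D2:**
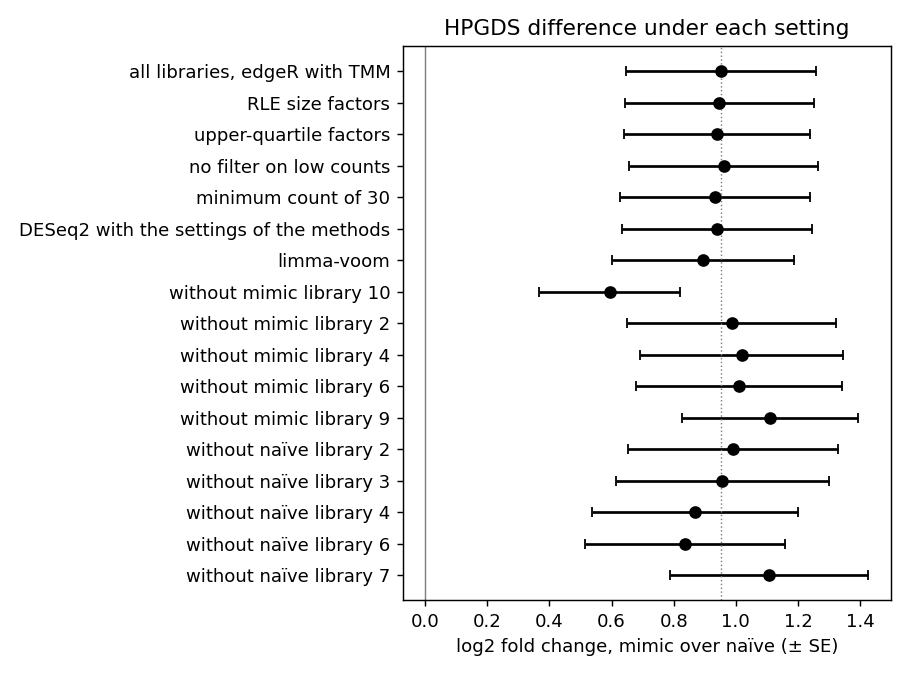
HPGDS log2 fold change (mimic over naïve, x axis) with its standard error, for all libraries, for other scalings, filters and models, and with each library left out in turn. All points lie to the right of 0. The lowest value, 0.59, is the one without mimic library 10, and the others lie between 0.84 and 1.11.

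In the order of levels from 18.3 to 97.7 CPM, 8 of the 9 pairs of neighbouring libraries had Poisson 95% intervals that overlapped. The exception was the step to mimic library 10, whose interval of 88.0 to 108.0 CPM lay above the 40.5 to 55.1 CPM of mimic library 2. These intervals cover counting error only. For scale, counting error alone would give a coefficient of variation of 6.99% among the mimic libraries and 9.36% among the naïve libraries. The observed values were 51.3% and 31.9%, and 20.5% for the mimic libraries without library 10.

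HPGDS also varied more than most genes between libraries of the same group. Mimic library 10 raised both this spread and the group difference that chose the gene, so the spread is not free of that choice. The within-group SD of HPGDS was 0.55 in log2 CPM, where the median of the 6083 genes with a mean of 10 CPM or more was 0.25. Of these genes 93.7% had a smaller SD. Without mimic library 10 the SD of HPGDS was 0.40 and 82.1% of the genes had a smaller one. The biological coefficient of variation fitted by edgeR was 33.0% for HPGDS, where the common value was 21.2%.

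**Figure D3:**
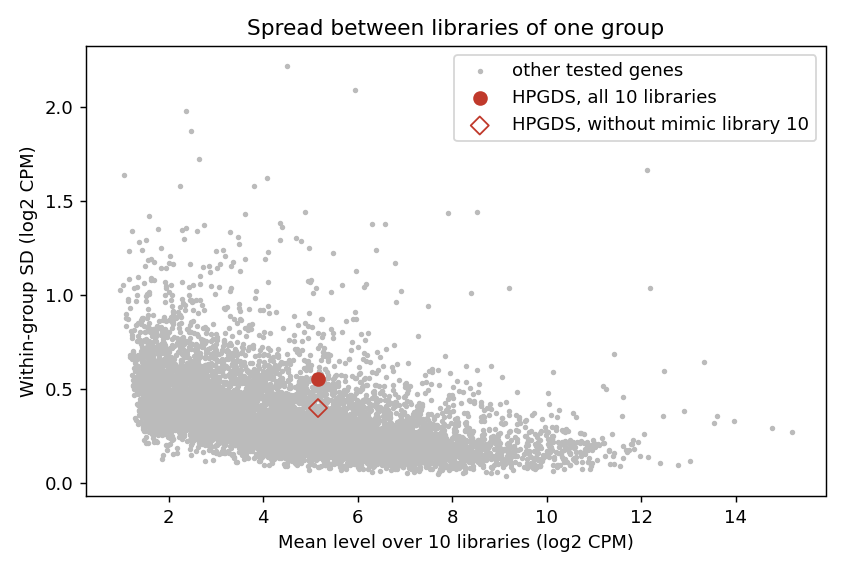
Within-group SD (log2 CPM, y axis) against mean level over the 10 libraries (log2 CPM, x axis) for every tested gene, in grey. HPGDS lies at an SD of 0.55 with all libraries (filled circle) and at 0.40 without mimic library 10 (open diamond).

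HPGDS was a transcript of middling abundance in this tissue. Its mean over the 10 libraries, 39.5 CPM, was above that of 60.5% of the tested genes. These are counts of 3′ ends and not of reads along the transcript, so levels of different genes can be set side by side without correction for length, although genes may differ in how well their 3′ end is captured. By level among the tested genes HPGDS ranked 1693rd in mimic library 10 and between 3038th and 3995th in the other mimic libraries. It ranked between 3351st and 4891st in the naïve libraries.

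Mimic library 10 was not high in general. Of the 6083 genes with a mean of 10 CPM or more, 608 had their highest level in it, where the other libraries had 279 to 1333. In 5 of them the level was at least 2 times that of every other library, and HPGDS was among these 5. By comparison 13 such genes had their high value in mimic library 2 and 11 in naïve library 7. The other 4 genes of mimic library 10 have no symbol in the sources used here and are named because their values were seen. ENSGALG00000016392 stood at 251.3 CPM in mimic library 10 and at 18.3 to 68.4 CPM elsewhere. ENSGALG00000032544 stood at 154.6 CPM there and at 26.4 to 75.3 CPM elsewhere. The remaining genes were ENSGALG00000000220, at 39.9 CPM in that library, and ENSGALG00000010193, at 29.5 CPM.

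Of genes that mark microglia, the resident macrophages of the brain, 6 could be identified by name, all through the study's lists of changed genes. Their direction, calls and adjusted p are therefore not independent evidence. Of 30 other listed marker genes of microglia and macrophages, 0 could be matched by name. The same was true of 0 of 6 listed genes of mast cells, 0 of 11 of thrombocytes and 0 of 10 of T cells. By edgeR, 2 of the 6 microglial genes were called higher after the mimic and 0 were called lower. Of all 8585 tested genes, 12 (0.14%) were called higher and 2 (0.0233%) lower. The median log2 fold change of the 6 genes was 1.05, beside −0.00420 for all tested genes. All 5 mimic libraries lay above every naïve library for 5 of the genes, as they did for 1.09% of all tested genes, and below every naïve library for TREM2, as they did for 0.513%.

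C1QB, a chain of the complement component C1q, which microglia make in the mammalian brain, rose by 1.24 on the log2 scale (adjusted p = 0.00346 from edgeR, n = 5 in each group). It stood at 39.0 to 51.3 CPM in the mimic libraries and at 16.6 to 24.3 CPM in the naïve libraries. C1QC, another C1q chain, rose by 1.04 (adjusted p = 0.0460 from edgeR), although this call was lost without any single library other than mimic library 4 or naïve library 7 (adjusted p up to 0.193 from edgeR). For C1QA, the third chain, the value was 1.08 (edgeR, adjusted p = 0.0633). SPI1, a transcription factor of macrophages and microglia, and P2RY13, a purine receptor of microglia, had log2 fold changes of 0.85 and 1.05 (adjusted p = 0.109 and 0.0633 from edgeR). For TREM2, which binds lipids at the surface of microglia, the log2 fold change was −0.85 (adjusted p = 0.320 from edgeR).

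The summed level of all 6 microglial genes was 221.8 CPM in mimic library 6, 204.8 CPM in library 2, 175.4 CPM in library 10, 159.4 CPM in library 4 and 158.2 CPM in library 9. In the naïve libraries it was 116.6 CPM in library 4, 116.1 CPM in library 7, 108.4 CPM in library 6, 81.5 CPM in library 2 and 80.5 CPM in library 3. The mimic libraries thus all lay above the naïve libraries in this sum, as follows from genes chosen for that difference. Mimic library 10, the highest for HPGDS, was in the middle of its group, while mimic library 9 was the lowest of its group for both measures. The part of microglial RNA in the HPGDS difference was not tested. In tissue RNA of this kind a different number of cells of a type and a different amount of RNA per cell cannot be told apart.

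Over the 10 libraries the correlation of HPGDS with the 6 genes in log2 CPM was highest for SPI1 (Pearson's r = 0.72, Spearman's rho = 0.77) and lowest for TREM2 (r = −0.68, rho = −0.82). Once each group's mean was subtracted, r was 0.39 for SPI1, 0.24 for C1QB, 0.21 for P2RY13, 0.01 for C1QA, −0.05 for C1QC and −0.35 for TREM2. The larger coefficients over all libraries thus came with the difference between the groups, which chose all of these genes. They are given as descriptions, since libraries also share depth and scaling.

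GPX1, a glutathione peroxidase under the name the study's list gives it, was the one gene of glutathione metabolism that could be identified. Its level was 345.2 ± 65.5 CPM in the mimic libraries and 233.4 ± 35.9 CPM in the naïve libraries (SD, n = 5 each), or 0.57 on the log2 scale (edgeR, adjusted p = 0.229). GPX1 could be named only through the study's tables, which include lists of genes changed between these groups. The direction and adjusted p of GPX1 are therefore not taken as independent evidence. RBFOX3, a nuclear protein of neurons, was the only 1 of 10 listed neuron genes that could be identified. It stood at 84.5 ± 23.3 CPM in the mimic libraries and 115.8 ± 19.8 CPM in the naïve libraries (SD, n = 5 each), or −0.45 on the log2 scale (edgeR, adjusted p = 0.612). It was highest of the mimic libraries in library 10, at 110.6 CPM, and highest of the naïve libraries in library 7, at 138.4 CPM, which were also the highest of their groups for HPGDS. Naïve library 7 was likewise the highest naïve library for GPX1, C1QA, C1QB, C1QC, SPI1 and P2RY13. Of the 6083 genes with a mean of 10 CPM or more, 1333 (21.9%) had their highest level of all libraries there. The other naïve libraries held 279 to 499 such maxima, so a peak in library 7 is not particular to the genes named here. Over the 10 libraries RBFOX3 had an r of −0.09 with HPGDS (rho = −0.13), and 0.51 with each group's mean subtracted. Of 31 listed genes of prostaglandin synthesis, breakdown and reception other than HPGDS, 0 could be matched by name to the counts, so the enzymes before and after HPGDS and the receptors of its product are not described here.

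Among the 6082 other genes with a mean of 10 CPM or more, those most like HPGDS over the 10 libraries were found by Pearson's r in log2 CPM. The first 5 were ENSGALG00000045738 (r = 0.95), ENSGALG00000029850 (r = 0.89), ENSGALG00000038951 (r = 0.87), ENSGALG00000039461 (r = 0.84) and ENSGALG00000006842 (r = 0.83), none of which has a symbol in the sources used here. Spearman's rho for these genes lay between 0.71 and 0.92. Without mimic library 10 and naïve library 6, the libraries farthest from the HPGDS median, r lay between 0.59 and 0.82. As these genes were picked from 6082 for their r, no p is given. In all, 11 genes had an r above 0.8, and 23 had an r above 0.8 or below −0.8.

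The most alike of them varied far less than HPGDS. ENSGALG00000045738 stood at 163.2 CPM in mimic library 10, at 144.4 to 151.9 CPM in the other mimic libraries and at 136.1 to 146.0 CPM in the naïve libraries. Its log2 fold change was 0.08 with a standard error of 0.09. When each group's mean was subtracted first, the genes most like HPGDS were ENSGALG00000003124 (r = 0.93), ENSGALG00000008456 (r = 0.93), ENSGALG00000045738 (r = 0.92), ENSGALG00000009091 (r = 0.90) and ENSGALG00000023933 (r = 0.88). Of these 5, only ENSGALG00000045738 was also among the first 5 over all libraries. Their r over all libraries, with no mean subtracted, was 0.54 to 0.95, and 0.20 to 0.82 without mimic library 10 and naïve library 6.

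Of the 92 genes in this comparison that have a symbol, OASL and SOCS3 were the most like HPGDS by Pearson's r, at 0.81 for each over the 10 libraries. OASL is an antiviral gene induced by interferon, and SOCS3 is a feedback inhibitor of cytokine signaling. They are named because their values were seen. Both came from the study's list of genes that differed between these groups, and both passed the minimum of 10 CPM through their levels in the mimic libraries, so these coefficients carry the same group difference that chose HPGDS. OASL stood at 29.3 CPM in mimic library 10, at 6.01 to 17.0 CPM in the other mimic libraries and at 4.06 to 6.66 CPM in the naïve libraries. Like HPGDS it was highest in mimic library 10 and, among the mimic libraries, lowest in library 9. Among the naïve libraries OASL was instead lowest in library 7, at 4.06 CPM, where HPGDS was highest, at 40.1 CPM. SOCS3 was at 40.7 CPM in mimic library 10 and at 60.5 CPM in the highest mimic library, library 2, against 1.08 to 5.07 CPM in the naïve libraries. With each group's mean subtracted, r was 0.64 for OASL and 0.63 for SOCS3. Without mimic library 10 and naïve library 6, r was 0.57 for OASL and 0.79 for SOCS3. Spearman's rho over all libraries was 0.67 for OASL and 0.81 for SOCS3, beside 0.77 for SPI1. For ITGB1BP3, another gene named by the study's tables, r was 0.71 and rho 0.81, and r was 0.87 without those libraries.

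**Figure D4:**
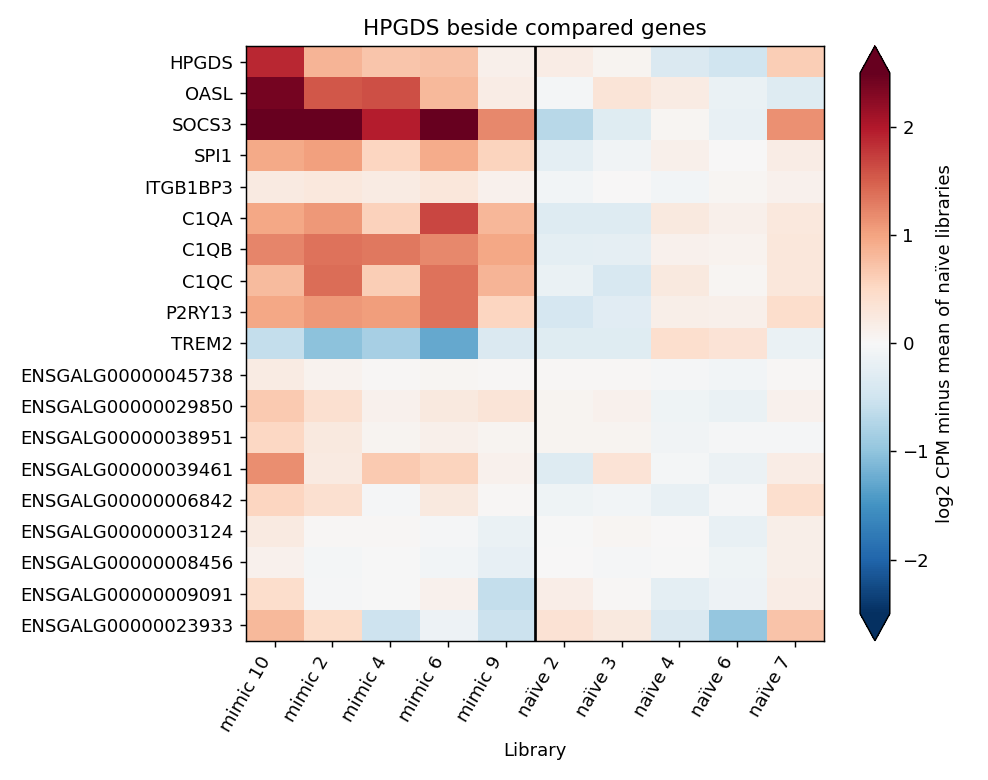
log2 CPM minus the mean of the naïve libraries (color, which ends at 2.5 in either direction) for HPGDS and compared genes in each library, the mimic libraries left of the line. HPGDS is highest in mimic library 10, which the 5 microglial genes of higher mean are not, and TREM2 is lower in the mimic libraries.

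In the RefSeq annotation of the GRCg7b assembly, HPGDS lies between SMARCAD1, a chromatin remodeler, and OPN4-1, a melanopsin photopigment gene whose gene model overlaps that of HPGDS. The counts were made on galGal5, so no position is given. Of the 5 protein-coding genes on each side of HPGDS in that annotation, none could be matched by name to the counts, and whether molecules of OPN4-1 were counted under HPGDS was not tested.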

How the data were processed

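RNA from the PO/AH of 10 libraries (15 ng each) was sequenced by bulk MARS-seq. After trimming with cutadapt, the authors used STAR to align reads to galGal5 gene 3′ ends and HTSeq for counts per gene, collapsed UMIs and corrected for saturation, with tool versions not given in the sources used here. Deposited UMI counts were used; 10 further columns of normalized counts were not. Columns were grouped by the condition in their names.

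The analysis of the counts ran in edgeR 4.0.16 under R 4.3.3 (filterByExpr with a minimum count of 10, TMM, robust quasi-likelihood test, two-sided, Benjamini-Hochberg over 8585 genes). DESeq2 1.42.0 at the study's settings, limma-voom (limma 3.58.1), other scalings and filters and leaving out each library were alternatives. DESeq2 and limma-voom ran on the same 8585 filtered genes, and the study's methods do not describe this filter. log2 CPM used a prior count of 2. The fit was tested on simulated data. No 2 libraries of a group were copies (chi-square per gene at least 8.54).

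HPGDS and the lists were chosen with earlier results of these data known. Symbols came from the study's tables, which named 137 of the 11324 identifiers and 9 of 207 listed genes of pathways and cell types. Genes to name were HPGDS, tested members of the prostaglandin lists, called members and the 3 of smallest p of other lists, and the 5 most like HPGDS over all libraries and within groups. The other microglial genes, OASL, SOCS3 and ITGB1BP3 were named outside this rule, after their values were seen. A deposited list of the thresholds of the comparison by the authors was not used.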

Additional observations from a re-analysis of the deposited data

Results flagged for a closer look

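Mimic library 10 held 97.7 CPM of HPGDS, and its gap to the next mimic library, at 47.4 CPM, was 0.727 of the range of the group, above Dixon's critical value of 0.71 for 5 values. On the log2 scale the same ratio was 0.586, below that value. A pair of other gene levels lay beyond the same value, both of them in naïve library 7. ENSGALG00000006842 was at 55.3 CPM there, where the other naïve libraries reached 40.4 CPM. SOCS3 was at 5.07 CPM there, where the others reached 2.13 CPM. Naïve library 7 was the smallest library, and SOCS3 levels this low rest on few counts. On the log2 scale the ratio was 0.743 for ENSGALG00000006842, still above 0.71, and 0.561 for SOCS3, below it. The levels flagged on the CPM scale are 3 of 42 groups of 5 values examined over 21 genes. Mimic library 10 raised the group difference that chose HPGDS. Many of the other genes were picked for their likeness to HPGDS or from the study's lists. The rate of about 1 in 20 holds for independent, normally distributed values not chosen in this way. The genes here also share the same libraries, so these flags are descriptions only.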

How the results depend on the processing

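HPGDS had the higher level after the mimic under all 16 alternatives. The gene was chosen for this direction in these same libraries, so the direction is given as a description only. At an adjusted p of at most 0.05 it was called under none of the alternatives. The study's list used a looser limit, so these calls do not bear on its place there. The log2 fold change of HPGDS ranged from 0.59 to 1.11 with a library left out and from 0.89 to 0.96 under the other settings. Over all tested genes, DESeq2 at the study's settings, but after the filter on low counts, called 36 higher and 5 lower. A minimum count of 30 gave 7 higher. With a library left out 6 to 18 were higher and 2 lower. Of the 6 microglial genes, 5 were called higher by DESeq2 and 1 by limma-voom or with a minimum count of 30, and 1 to 3 with a library left out. The adjusted p ranged over the alternatives from 1.29e-12 to 0.0228 for C1QB and from 0.000199 to 0.193 for C1QC. For C1QA it ranged from 0.000896 to 0.231, for P2RY13 from 0.000896 to 0.242 and for SPI1 from 0.0105 to 0.346 (edgeR, limma-voom and DESeq2). The microglial genes came from lists drawn up on these same libraries, so their calls and adjusted p are descriptions only. TREM2, GPX1 and RBFOX3 passed the threshold under none of them, with lowest adjusted p of 0.0803, 0.0524 and 0.504. The cause of these changes was not tested. The alternatives for prostaglandin genes were not run, since no listed member was matched by name. No paired analysis was possible because replicate numbers in the labels could not be tied to columns.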
